A study of Mus musculus with 18 samples.

Results

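Messenger RNA of 9 genes that make, move and break down dopamine was followed in the mouse substantia nigra, a midbrain nucleus rich in dopaminergic neurons. The genes were taken by name from the deposited table of 55270 genes, and all 9 passed the filter on low values that left 19443 genes for testing. They are Th and Ddc, which encode the enzymes of dopamine synthesis, Gch1, Pts and Qdpr, which make or recycle the cofactor of that synthesis, Slc6a3 and Slc18a2, which encode the plasma membrane and vesicular transporters, and Maoa and Maob, which encode the monoamine oxidases.

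Tyrosine hydroxylase (Th) converts tyrosine to L-DOPA and is the rate-limiting step, and aromatic L-amino acid decarboxylase (Ddc) converts L-DOPA to dopamine. The hydroxylase needs tetrahydrobiopterin, which GTP cyclohydrolase 1 (Gch1) and 6-pyruvoyltetrahydropterin synthase (Pts) help to make and dihydropteridine reductase (Qdpr) regenerates. The vesicular monoamine transporter VMAT2 (Slc18a2) loads dopamine into vesicles, the dopamine transporter DAT (Slc6a3) takes it back up from outside the cell, and the monoamine oxidases on the outer mitochondrial membrane oxidise it. In the midbrain Th and Slc6a3 mark dopaminergic neurons, while Ddc, Gch1 and Slc18a2 are also used by serotonergic neurons, and Qdpr and Maob are known to be expressed in glia as well.

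The 18 libraries came from 3 groups of 6 mice aged 3 months. Intact mice were labelled WT, with no treatment named. The other mice had been given an adeno-associated virus (AAV) about a month before, which delivered either green fluorescent protein (AAV-GFP) or SIRT3 (AAV-SIRT3), a deacetylase of mitochondria. The labels give neither the promoter nor the serotype of the virus, so the cells in which the transgenes were active are not known from them. Nothing in the labels beyond the 6 mice per group says that each library is 1 mouse, and p-values measure the spread between these libraries.

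Depth was between 47.2 and 64.7 M reads (megareads) assigned to genes per library. Sirt3 itself was at 1801 to 2041 normalised reads in AAV-SIRT3 libraries, 1684 to 1936 in AAV-GFP and 1733 to 1920 in intact libraries, so these ranges overlapped and the gene is a weak check of the labels (log2 fold change of AAV-SIRT3 against AAV-GFP 0.13, limma adjusted p = 0.183). The libraries intact 1, 3 and 5 stood apart, because the 6 thalamus markers summed to between 19497 and 22218 normalised reads there and to at least 38187 in the other 15 libraries. Intact 1 also held 11853 normalised reads of the 5 serotonergic markers, led by Tph2 with 6092, against 958 to 4164 in the others, and the noradrenergic genes Dbh (102, at most 13.7 elsewhere) and Slc6a2 (141, at most 5.63 elsewhere) were highest there. Results that rest on these libraries are given with and without them below. In AAV-GFP 2 and AAV-SIRT3 5 and 6, genes with long transcripts were lower relative to short ones. The Spearman correlation with length across 18855 genes was -0.300, -0.225 and -0.286 there. This correlation was above 0 in every intact library (0.062 to 0.165) and below 0 in every AAV-SIRT3 library (-0.286 to -0.022). It was -0.300 to 0.105 in AAV-GFP libraries. The trend thus went along with the group in AAV-SIRT3 against intact, and calls with it removed are given below.

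The sequences around the start sites of Th, Slc18a2, Ddc, Gch1 and Slc6a3 are shown because these genes hold the 8 highest correlations from library to library among the 9 genes (given below), and shared motifs are one way in which such genes can be described. RefSeq (GRCm38.p6) gave promoter windows for 8 of the 9 genes, all but Maob, with 2 windows for Ddc, of which the upstream one is shown because the other held none of the motifs searched. Each sequence below is written 5′ to 3′ on the strand of its gene, from 250 bases before to 20 bases after the start site, and capitals mark a full cAMP response element (TGACGTCA) or an NBRE (AAAGGTCA, the site of the Nr4a family, here on the opposite strand and so printed as its reverse complement).
Th promoter, chr7:142899976-142900245, minus strand: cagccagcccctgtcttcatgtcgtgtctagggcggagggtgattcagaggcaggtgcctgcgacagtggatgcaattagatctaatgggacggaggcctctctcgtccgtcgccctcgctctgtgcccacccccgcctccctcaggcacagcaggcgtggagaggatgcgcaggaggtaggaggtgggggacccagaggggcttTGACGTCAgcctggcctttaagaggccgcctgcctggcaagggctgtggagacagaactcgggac
Slc18a2 promoter, chr19:59260628-59260897, plus strand: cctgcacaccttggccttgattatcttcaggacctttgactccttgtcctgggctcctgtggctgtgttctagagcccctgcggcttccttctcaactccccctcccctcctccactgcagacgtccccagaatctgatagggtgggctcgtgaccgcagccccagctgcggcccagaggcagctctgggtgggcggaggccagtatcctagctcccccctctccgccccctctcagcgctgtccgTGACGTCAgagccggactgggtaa
Ddc upstream promoter, chr11:11898125-11898394, minus strand: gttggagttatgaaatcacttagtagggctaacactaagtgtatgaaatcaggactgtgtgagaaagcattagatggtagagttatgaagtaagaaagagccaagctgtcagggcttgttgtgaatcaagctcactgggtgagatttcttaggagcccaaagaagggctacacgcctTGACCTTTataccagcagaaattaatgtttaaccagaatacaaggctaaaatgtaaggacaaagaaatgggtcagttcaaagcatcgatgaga
Gch1 promoter, chr14:47189394-47189663, minus strand: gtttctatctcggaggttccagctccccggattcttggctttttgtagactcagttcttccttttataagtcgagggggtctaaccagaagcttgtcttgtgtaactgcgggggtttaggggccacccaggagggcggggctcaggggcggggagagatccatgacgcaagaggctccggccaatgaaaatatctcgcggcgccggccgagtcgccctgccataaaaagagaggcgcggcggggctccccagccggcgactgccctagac
Slc6a3 promoter, chr13:73536497-73536766, plus strand: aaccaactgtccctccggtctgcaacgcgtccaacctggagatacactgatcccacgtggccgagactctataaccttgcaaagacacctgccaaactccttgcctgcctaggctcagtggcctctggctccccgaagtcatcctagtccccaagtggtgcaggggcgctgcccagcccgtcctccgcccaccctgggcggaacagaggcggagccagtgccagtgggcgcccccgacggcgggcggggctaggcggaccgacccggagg

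Motifs were searched on both strands of the 300-base windows, which reach 50 bases past the start. The cAMP response element TGACGTCA was found in the windows of Th, 45 bases before the start, and of Slc18a2, where it begins 4 bases before the start. It occurs in 1.79% of the 32851 windows of that length. The NBRE letters AAAGGTCA were found 73 bases before the upstream start of Ddc alone among the windows of these genes, and in 1.507% of all windows. The downstream window of Ddc held no NBRE, and which start of Ddc was used in these libraries was not tested. A GC box (GGGCGG) was found in the windows of 7 genes, namely Th, Gch1, Pts, Qdpr, Slc6a3, Slc18a2 and Maoa, and in 35.66% of all windows. The letters TAATCC, a site of bicoid-type homeodomain factors, were in none of the windows of these genes and in 7.062% of all. The cAMP response element overlapped no GC box in these sequences. These matches describe the letters in the windows and do not show binding.

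Compared per kilobase of exon in intact libraries, the level was highest for Qdpr (6618 ± 451 normalised reads per kilobase, SD, n = 6), followed by Slc6a3 (3201 ± 421) and Th (2423 ± 322). Slc18a2 (1377 ± 278), Ddc (1291 ± 261), Maob (1035 ± 102) and Maoa (966 ± 57.4) came next. The lowest levels per kilobase were those of Pts (253 ± 12.1) and Gch1 (78.5 ± 19.4), 2 of the cofactor genes. The ranges over intact libraries overlapped between Slc6a3 and Th, Slc18a2 and Ddc, Ddc and Maob, and Maob and Maoa, so the order of these neighbours is less sure, although Slc6a3 was above Th in 17 of the 18 libraries. Ddc was above Maob in 9 of 18 libraries. Lengths are unions of all annotated exons in GENCODE M21, so a gene with long alternative exons reads too low on this scale.

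**Figure D1:**
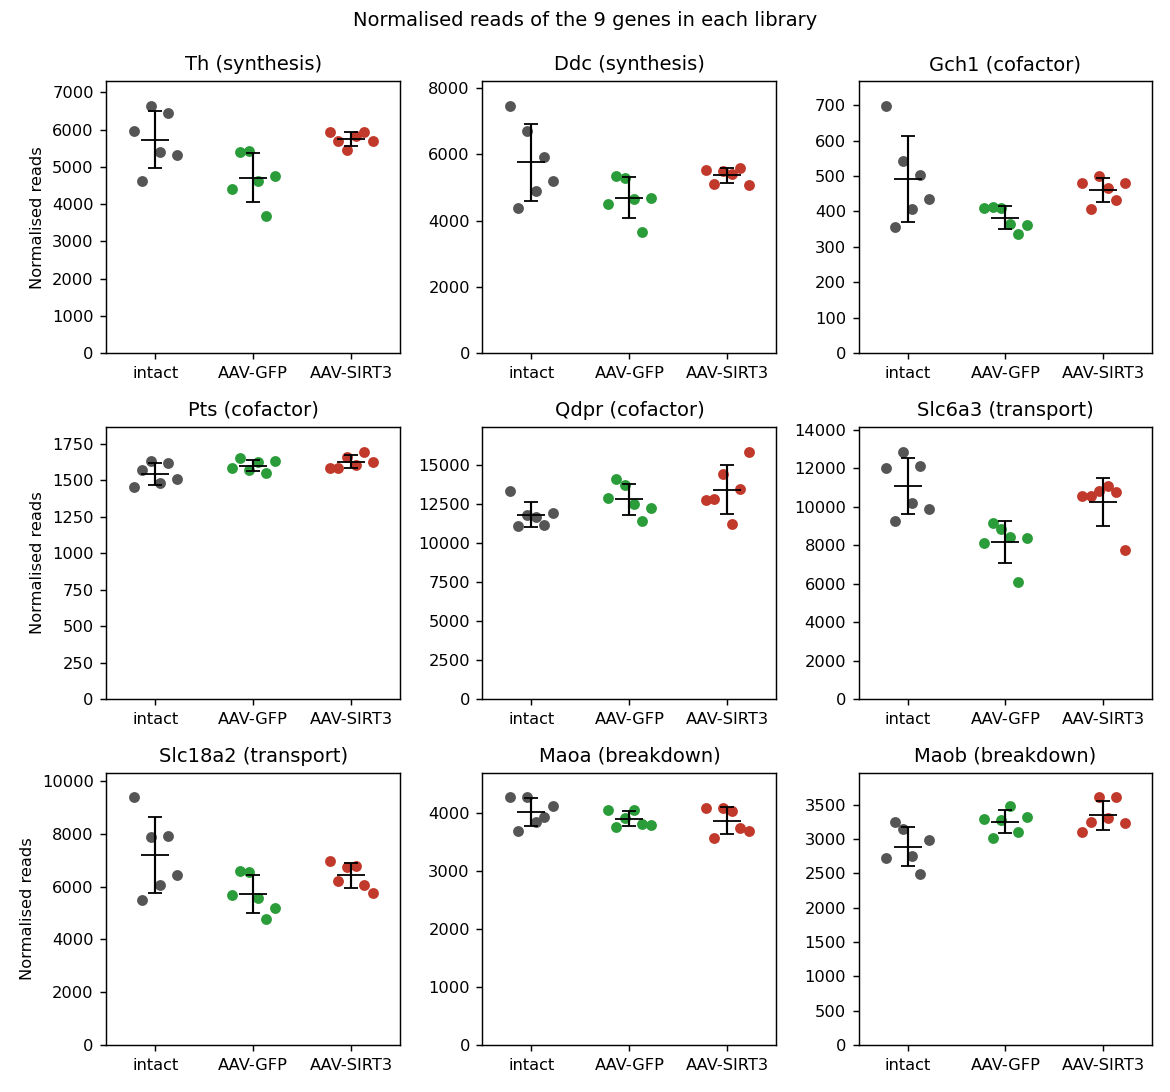
Normalised reads of each gene (vertical axis, from 0) in each of the 18 libraries (points, replicates 1 to 6 from left to right) by group, with the mean and SD as bars. Th is higher in all AAV-SIRT3 than in all AAV-GFP libraries, and Slc6a3 is lower in all AAV-GFP than in all intact libraries.

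Among the synthesis enzymes, Th (chromosome 7, 142892752 to 142931128, minus strand, protein coding) was at 4623, 5679 and 6637 normalised reads in intact libraries (lowest, median and highest of 6). It was at 3673, 4686 and 5429 in AAV-GFP and at 5448, 5763 and 5938 in AAV-SIRT3 libraries. The AAV-SIRT3 libraries were thus all above the AAV-GFP libraries, by a narrow gap between the lowest of one and the highest of the other, and both groups overlapped the intact ones. The log2 fold change of Th between AAV-SIRT3 and AAV-GFP was 0.30 (SE 0.084), which did not pass over all genes (limma adjusted p = 0.122). Taken alone, the gene had an exact two-sided permutation p of 0.00216, the smallest that 6 against 6 libraries allow. Among all tested genes, 0.37% were likewise higher in every AAV-SIRT3 than in every AAV-GFP library. Against intact libraries, Th had log2 fold changes of -0.28 in AAV-GFP and 0.02 in AAV-SIRT3 (limma adjusted p = 0.0755 and 0.908). Th varied little within AAV-SIRT3, with a coefficient of variation of 3.23% against 14.0% in AAV-GFP and 13.3% in intact libraries, a difference in spread that was not tested.

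Ddc (chromosome 11, 11814101 to 11898144, minus strand) was at 4370, 5548 and 7467 normalised reads in intact libraries, 3673, 4674 and 5360 in AAV-GFP and 5072, 5455 and 5593 in AAV-SIRT3 libraries. The highest value was that of intact 1, and the 3 groups overlapped. Th and Ddc had 3673 normalised reads each in AAV-GFP 5, the lowest library for both. AAV-SIRT3 libraries had more Ddc than AAV-GFP libraries in 32 of 36 pairs (log2 fold change 0.20, SE 0.102, limma adjusted p = 0.341). Against intact libraries, Ddc was at -0.28 in AAV-GFP and -0.08 in AAV-SIRT3 on the log2 scale (limma adjusted p = 0.133 and 0.627). An antisense gene, 1700042O10Rik, overlaps Ddc in GENCODE M21, and the strand setting of the counting is not given in the sources used here.

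Of the cofactor genes, Gch1 (chromosome 14, 47153895 to 47189413, minus strand), the first enzyme of tetrahydrobiopterin synthesis, was at 357, 470 and 698 normalised reads in intact libraries. It was at 337, 387 and 413 in AAV-GFP and at 408, 473 and 499 in AAV-SIRT3 libraries, so that all groups overlapped, AAV-GFP and AAV-SIRT3 only slightly. Intact 1 held the highest value, 698, and the next highest of all libraries was intact 3 with 543. The log2 fold change was -0.33 (SE 0.116, limma adjusted p = 0.125) for AAV-GFP against intact and 0.27 (SE 0.116, limma adjusted p = 0.280) for AAV-SIRT3 against AAV-GFP.

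Pts (chromosome 9, 50521617 to 50528724, minus strand) was the steadiest of the genes, at 1452 to 1630 normalised reads in intact, 1546 to 1649 in AAV-GFP and 1581 to 1695 in AAV-SIRT3 libraries. Its log2 fold changes were 0.02, 0.05 and 0.08 for AAV-SIRT3 against AAV-GFP, AAV-GFP against intact and AAV-SIRT3 against intact, and none passed (limma adjusted p = 0.833, 0.482 and 0.174). Qdpr (chromosome 5, 45434021 to 45450236, minus strand) was at 11077, 11734 and 13324 normalised reads in intact libraries, 11406, 12697 and 14144 in AAV-GFP and 11258, 13169 and 15879 in AAV-SIRT3 libraries. The groups overlapped and the highest value was that of AAV-SIRT3 6. Its log2 fold change was 0.06 in AAV-SIRT3 against AAV-GFP and 0.11 in AAV-GFP against intact (limma adjusted p = 0.687 and 0.361). Qdpr came near the threshold in AAV-SIRT3 against intact, with a log2 fold change of 0.18 (SE 0.0665, limma adjusted p = 0.0586), and passed with DESeq2 (0.18, adjusted p = 0.0377), by which 23.8% of all genes were called there.

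Of the transporters, Slc6a3 (chromosome 13, 73536747 to 73578672, plus strand), which encodes DAT, was at 9283, 11103 and 12867 normalised reads in intact libraries. It was at 6087, 8404 and 9172 in AAV-GFP libraries, which all lay below the intact ones, and at 7743, 10656 and 11081 in AAV-SIRT3 libraries, which overlapped both. Slc6a3 fell in AAV-GFP against intact, with a log2 fold change of -0.44 (SE 0.099), so that normalised reads fell by 26.2% (limma adjusted p = 0.0263, exact two-sided permutation p = 0.00216). In that comparison 1.02% of all tested genes were called lower and 0.988% were lower in every AAV-GFP than in every intact library. When intact 1, 3 and 5 were left out, the value was -0.27 and did not pass (limma adjusted p = 0.352). These libraries also held the highest Slc6a3 values of the intact group (12027, 12867 and 12119 normalised reads, against 9283 to 10178). Leaving them out therefore lowers the intact level and leaves fewer libraries. With the thalamus markers as a covariate the value was -0.28 (limma adjusted p = 0.418). The call was also lost without intact 3 (-0.39, limma adjusted p = 0.0765), without intact 5 (-0.41, adjusted p = 0.0624) and without AAV-GFP 5 (-0.36, adjusted p = 0.0556). The part of the thalamus level in this result was not tested. In bulk tissue, fewer cells of a type and less RNA per cell cannot be told apart.

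Between AAV-SIRT3 and AAV-GFP the log2 fold change of Slc6a3 was 0.33 (SE 0.099), not passing over all genes (limma adjusted p = 0.143), and 5 of the 6 AAV-SIRT3 libraries were above every AAV-GFP library. The exception was AAV-SIRT3 6 with 7743, below the 10540 of the next library. Without that library the log2 fold change was 0.41 and the adjusted p 0.0773 by limma. With all libraries, Slc6a3 in AAV-SIRT3 against intact was at -0.11 on the log2 scale (limma adjusted p = 0.457).

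Slc18a2 (chromosome 19, 59260896 to 59296012, plus strand), which encodes VMAT2, was at 5483, 7160 and 9380 normalised reads in intact libraries, 4779, 5625 and 6589 in AAV-GFP and 5764, 6492 and 6965 in AAV-SIRT3 libraries. The groups overlapped, and intact 1 again held the highest value. The log2 fold change was -0.31 (SE 0.102, limma adjusted p = 0.0970) for AAV-GFP against intact and 0.17 (SE 0.102, limma adjusted p = 0.430) for AAV-SIRT3 against AAV-GFP. Without intact 1, 3 and 5 the first of these was -0.07 (limma adjusted p = 0.787). With all libraries, Slc18a2 in AAV-SIRT3 against intact was at -0.14 on the log2 scale (limma adjusted p = 0.339).

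Of the monoamine oxidases, which lie side by side on the X chromosome, Maoa (16619698 to 16687818, plus strand) was at 3693, 4037 and 4276 normalised reads in intact libraries, 3772, 3871 and 4064 in AAV-GFP and 3567, 3889 and 4096 in AAV-SIRT3 libraries. These ranges nearly coincided, and the log2 fold changes were between -0.06 and -0.01. Maob (16709282 to 16817366, minus strand), the form known from astrocytes and serotonergic neurons, was at 2491, 2871 and 3242 normalised reads in intact libraries, 3016, 3287 and 3484 in AAV-GFP and 3096, 3276 and 3604 in AAV-SIRT3 libraries. Maob rose in AAV-SIRT3 against intact, with a log2 fold change of 0.22 (SE 0.058), equal to 16.2% more normalised reads (limma adjusted p = 0.0112), and was higher in 32 of 36 pairs of libraries. In that comparison 21.7% of all tested genes were called in either direction and 11.3% of all tested genes were called higher, so a call there is common. Maob was 0.18 higher on the log2 scale in AAV-GFP than in intact libraries (limma adjusted p = 0.102) and 0.04 higher in AAV-SIRT3 than in AAV-GFP (limma adjusted p = 0.782). Without intact 1, 3 and 5 the value of Maob in AAV-SIRT3 against intact was 0.16 and did not pass (limma adjusted p = 0.1002), and with the thalamus markers as a covariate it was 0.14 (limma adjusted p = 0.258).

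**Figure D2:**
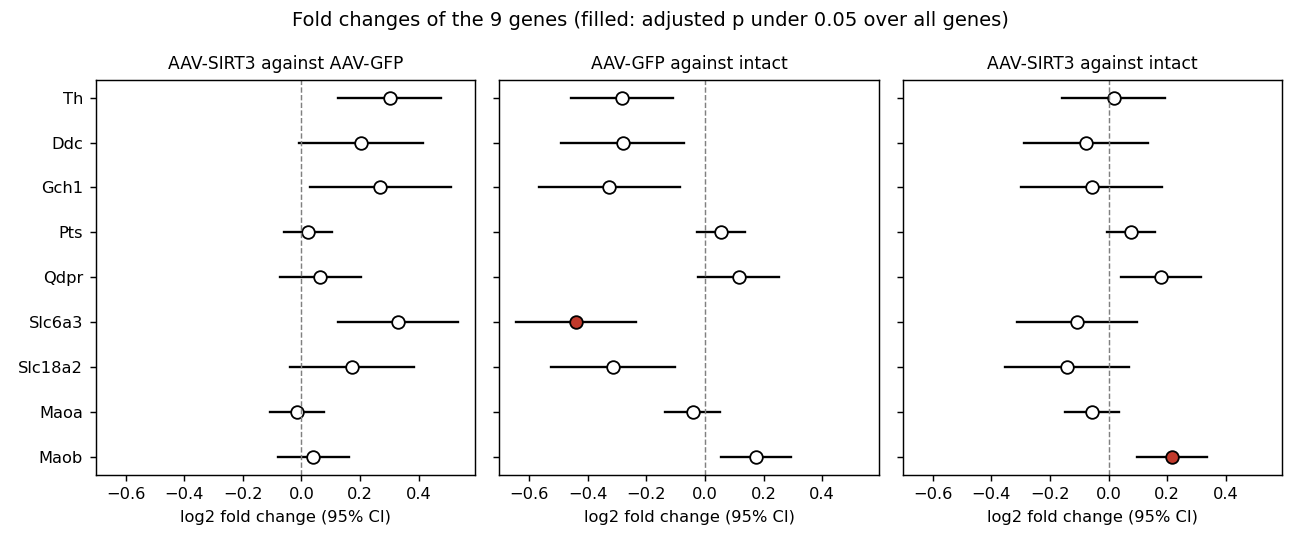
Log2 fold changes from the limma fit (points) with 95% confidence intervals (lines) for the 9 genes in the 3 comparisons, where filled points passed an adjusted p of 0.05 over all genes. Only Slc6a3 in AAV-GFP against intact and Maob in AAV-SIRT3 against intact are filled.

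Read by comparison, 0 of the 9 genes passed in AAV-SIRT3 against AAV-GFP with limma, where 0.113% of all tested genes did. At an unadjusted p under 0.05 there were 3 (Th, Gch1 and Slc6a3), beside 15.2% of all genes. DESeq2 called 2 (Th, adjusted p = 0.0419, and Slc6a3, adjusted p = 0.0399), where it called 1.6% of all genes. Limma without AAV-GFP 2 called the same 2, where 4.43% of all genes were called. Of the 9 genes 8 were above 0, with a median log2 fold change of 0.17 beside -0.0041 over all tested genes. In AAV-GFP against intact 1 gene passed, where 1.84% of all genes did, and 6 genes were below 0 with a median of -0.28 beside 0.00074 over all genes. With intact 1, 3 and 5 left out, 0 genes passed, where 0.0514% of all genes did. Th, Ddc and Gch1 were then at -0.13, -0.05 and -0.06 on the log2 scale, against -0.28, -0.28 and -0.33 with them. Among intact libraries, these held the highest values of Th, Ddc, Gch1, Slc6a3 and Slc18a2, and intact 2 held the lowest. Leaving out intact 2 instead gave 5 calls (Th, Ddc, Gch1, Slc6a3 and Slc18a2), beside 2.38% of all genes, and DESeq2 gave 3 (Th, Gch1 and Slc6a3), beside 5.14% of all genes. In AAV-SIRT3 against intact 1 of the 9 genes passed, a share below the 21.7% of all genes that did. None passed there without intact 1, 3 and 5 (0 of 9), beside 8.67% of all genes. In this comparison the median of the 9 was -0.06 beside -0.0049 over all genes. The 3 comparisons share their groups in pairs, so a value low in AAV-GFP enters both of the first ones with opposite sign.

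The same genes were then measured relative to 12 genes of midbrain dopaminergic identity (Nr4a2, Pitx3, Lmx1a, Lmx1b, En1, En2, Foxa1, Foxa2, Ret, Slc10a4, Chrna6 and Chrnb3), by subtracting the mean log2 level of these from the log2 level of each gene in each library. Nr4a2, Lmx1b, En1, En2 and Slc10a4 were highest in intact 1, the library with the most serotonergic markers, and the others in intact 3 or 5. En1 was at 902 and En2 at 555 normalised reads in intact 1, against at most 702 and 407 elsewhere. Relative to the list, Th was lowest in intact 1, at 3.07 on the log2 scale against at least 3.16 elsewhere. The part of serotonergic cells in the level of this list was not tested. In AAV-GFP against intact all 12 were below 0, with a median log2 fold change of -0.30 beside 0.00074 over all genes, and 2 were called lower, beside 1.02% of all genes. These were Ret (-0.30, limma adjusted p = 0.0214) and Chrna6 (-0.35, limma adjusted p = 0.0359). Neither passed without intact 1, 3 and 5 (-0.20 and -0.19, limma adjusted p = 0.325 and 0.413). In AAV-SIRT3 against AAV-GFP 11 of the 12 were above 0 and 0 were called by limma, with 6 at an unadjusted p under 0.05, beside 15.2% of all genes. In AAV-SIRT3 against intact 0 were called and 0 were at an unadjusted p under 0.05, beside 21.7% and 34.9% of all genes. Pitx3, a transcription factor of nigral neurons, had a log2 fold change of -0.44 in AAV-GFP against intact and 0.44 in AAV-SIRT3 against AAV-GFP (limma adjusted p = 0.193 and 0.266), and Nr4a2 had -0.14 and -0.03 (limma adjusted p = 0.416 and 0.899).

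Relative to these genes, the differences of Th, Ddc, Gch1 and Slc18a2 between AAV-GFP and intact libraries were 0.01, 0.01, -0.03 and -0.02 on the log2 scale, each smaller than the SD between libraries of a group. The relative level of Slc6a3 was 4.26 ± 0.113 in intact and 4.12 ± 0.154 in AAV-GFP libraries (SD, n = 6 each), a difference of -0.14 (exact two-sided permutation p = 0.0974). The relative level of Qdpr was higher in every AAV-GFP than in every intact library, with 4.78 ± 0.139 against 4.37 ± 0.235 (difference 0.41, exact permutation p = 0.00216). Maob (0.47, exact permutation p = 0.0195) and Pts (0.35, exact permutation p = 0.0216) also had higher relative levels in AAV-GFP libraries. The mean log2 level of the identity genes was lower there, 8.87 against 9.16 in intact libraries. On their own, Qdpr, Maob and Pts differed by 0.11, 0.18 and 0.05 (limma adjusted p = 0.361, 0.102 and 0.482). Without intact 1, 3 and 5 the relative level of Qdpr differed by 0.20 (exact permutation p = 0.0476), where leaving out libraries could not create overlap. Those of Maob and Pts, which overlapped with all libraries too, then differed by 0.18 and 0.13 (exact permutation p = 0.214 and 0.238). In AAV-SIRT3 against AAV-GFP the relative levels of Th and Slc6a3 differed by 0.08 and 0.11 (exact permutation p = 0.203 and 0.199), and those of Maoa and Pts by -0.23 and -0.19 (exact permutation p = 0.0130 and 0.0346). These p-values belong to single genes and are not adjusted.

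The ratio of Slc6a3 to Th compares the transporter with the enzyme inside each library. It was 2.02, 2.01, 1.94, 1.88, 1.88 and 1.87 in intact libraries 1 to 6. It was 1.85, 1.70, 1.63, 1.82, 1.66 and 1.77 in the AAV-GFP libraries, all below every intact library. It was 1.78, 1.85, 1.99, 1.90, 1.81 and 1.36 in the AAV-SIRT3 libraries, which overlapped both. The means were 1.93 ± 0.0686, 1.74 ± 0.0891 and 1.78 ± 0.219 (SD, n = 6 each). AAV-GFP differed from intact libraries by -0.16 on the log2 scale (exact two-sided permutation p = 0.00216, adjusted p = 0.0292 over the 108 ratio tests of all pairs of the 9 genes in 3 comparisons, a set added after the data were seen). Without intact 1, 3 and 5 the difference was -0.14 (exact permutation p = 0.0238, where 6 against 3 libraries can give 0.0119 at the lowest). Slc6a3 was thus lower relative to Th in AAV-GFP libraries, by similar amounts with and without those 3 intact libraries. The direction was bound to stay, because the groups did not overlap with all libraries. The inverse ratio, Th to Slc6a3, differed by -0.03 on the log2 scale between AAV-SIRT3 and AAV-GFP, less than its spread between AAV-SIRT3 libraries (exact permutation p = 0.781, adjusted p = 0.819).

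**Figure D3:**
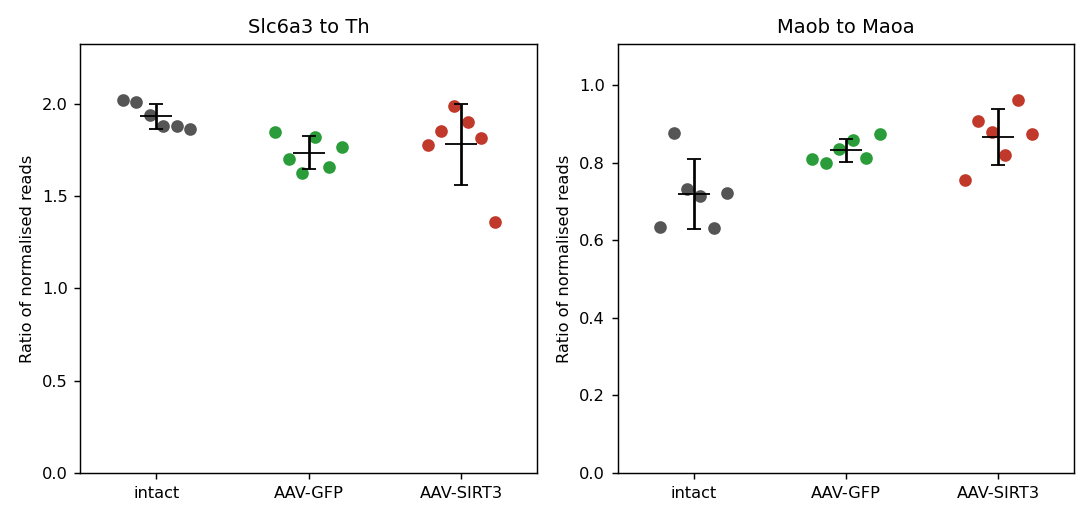
Ratio of normalised reads of Slc6a3 to Th (left) and of Maob to Maoa (right), on vertical axes from 0, in each library (points) by group with the mean and SD as bars. The 6 AAV-GFP libraries lie between 1.63 and 1.85 for Slc6a3 to Th, below the 6 intact libraries at 1.87 to 2.02.

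Of the 108 ratio tests, 11 had an adjusted p under 0.05, and 9 of these were in AAV-GFP against intact. Ratios of other genes were not tested, so no share over all genes stands beside these counts. Of the 11, 5 set Qdpr against another gene. These 5 share Qdpr, and the genes set against it varied together (given below), so they are not 5 separate results. Qdpr alone was 0.11 higher on the log2 scale in AAV-GFP than in intact libraries (limma adjusted p = 0.361), and the other gene was lower each time. The ratios of Th, Ddc, Gch1, Slc6a3 and Slc18a2 to Qdpr were all lower in AAV-GFP than in intact libraries without overlap (exact permutation p = 0.00216 each, adjusted p = 0.0292). Leaving out intact 1, 3 and 5 cannot create overlap in these ratios, so only the sizes are given. Without those libraries the inverse ratios of Qdpr to Slc6a3 and to Slc18a2 differed by 0.42 and 0.22 on the log2 scale. Th, Ddc and Gch1 to Qdpr differed by -0.27, -0.19 and -0.21 (unadjusted exact permutation p of 0.0119 to 0.0238 for all of these). Pts to Slc6a3, another of the 9, differed by 0.35 without intact 1, 3 and 5 (exact permutation p = 0.0119), against 0.49 with them. Slc6a3 to Maoa and to Maob, also among the 9, overlapped between the groups both with and without these 3 libraries. They differed by -0.28 and -0.39 without them (exact permutation p = 0.0714 and 0.0357), against -0.40 and -0.61 with them. In AAV-SIRT3 against AAV-GFP the ratio of Gch1 to Maoa was higher in every AAV-SIRT3 library, 0.119 ± 0.00589 against 0.0981 ± 0.00841 (SD, n = 6 each, log2 difference 0.28, exact permutation p = 0.00216, adjusted p = 0.0292). Th to Pts also passed there, with groups that overlapped (log2 difference 0.28, exact permutation p = 0.00433, adjusted p = 0.0425). The ratio of Maob to Maoa was 0.720 ± 0.0895 for intact, 0.832 ± 0.0301 for AAV-GFP and 0.867 ± 0.0713 for AAV-SIRT3 (SD, n = 6 each), and its differences from intact did not pass (exact permutation p = 0.0152, adjusted p = 0.0779, for each virus group). The inverse ratio, Maoa to Maob, differed from intact 2, 4 and 6 alone by -0.11 for AAV-GFP and by -0.17 for AAV-SIRT3 (exact permutation p = 0.143 each).

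Within groups, Th, Ddc, Gch1, Slc6a3 and Slc18a2 varied together from library to library in 8 of their 10 pairs. Deviations from the group means on the log2 scale were correlated over the 18 libraries for all 36 pairs, with 100000 permutations within groups. By Pearson r, 12 pairs had an adjusted permutation p under 0.05. The highest was Ddc with Slc18a2 (Pearson r = 0.93, adjusted permutation p = 0.00036; Spearman rho = 0.91, adjusted permutation p = 0.0018; r = 0.87 without the 2 libraries farthest in Ddc, intact 1 and 2). Gch1 with Slc18a2 (r = 0.90), Ddc with Gch1 (r = 0.88), Th with Ddc (r = 0.85), Ddc with Slc6a3 (r = 0.80), Th with Slc6a3 (r = 0.79), Th with Slc18a2 (r = 0.77) and Slc6a3 with Slc18a2 (r = 0.77) followed. Th with Gch1 (r = 0.61, adjusted permutation p = 0.0562) and Gch1 with Slc6a3 (r = 0.53, adjusted permutation p = 0.0566) did not pass by Pearson r. Gch1 with Slc6a3 had r = 0.34 without intact 1, 3 and 5, but passed by Spearman rho (0.73, adjusted permutation p = 0.0216). Over the 15 libraries without intact 1, 3 and 5, r was 0.86 for Ddc with Slc18a2, 0.75 for Gch1 with Slc18a2, 0.69 for Ddc with Gch1 and 0.94 for Th with Ddc. Th with Slc6a3 fell to r = 0.61 without intact 2 and AAV-GFP 5, and r was 0.97, 0.94 and 0.14 within intact, AAV-GFP and AAV-SIRT3 libraries. Th with Ddc was likewise 0.81, 0.99 and 0.29 within the groups. Both r were thus lowest within AAV-SIRT3 libraries, where Th and Ddc varied least, and the difference between groups was not tested.

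**Figure D4:**
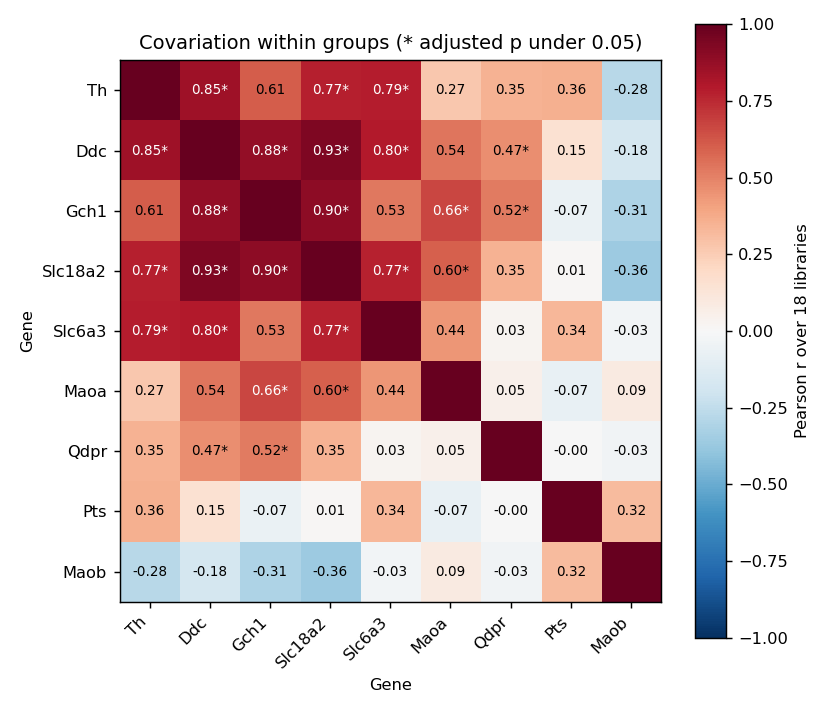
Pearson correlations of the 9 genes over 18 libraries after subtracting group means, as a heat map from -1 (blue) to 1 (red) with the value in each cell and a star where the permutation p adjusted over 36 pairs was under 0.05. Th, Ddc, Gch1, Slc18a2 and Slc6a3 form a block with r of 0.53 to 0.93, where 8 of 10 pairs are starred, and Maob has no starred pair.

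Of the other 4 genes, Qdpr varied with Gch1 (r = 0.52, adjusted permutation p = 0.0227) and Ddc (r = 0.47, adjusted permutation p = 0.0459). Without the 2 farthest libraries these r were 0.38 and 0.31. Neither pair passed by Spearman rho (adjusted permutation p = 0.0744 and 0.277). Maoa varied with Gch1 (r = 0.66, adjusted permutation p = 0.0195) and Slc18a2 (r = 0.60, adjusted permutation p = 0.0464), but Maoa and Maob did not vary together (r = 0.09, adjusted permutation p = 0.971; Spearman rho = 0.02). Maob and Pts passed with 0 of the other 8 genes. Qdpr also varied with the mean log2 level of 6 oligodendrocyte genes (r = 0.83, adjusted permutation p = 0.00216 over 72 relations of the 9 genes with 8 marker lists; rho = 0.74; r = 0.81 without the 2 farthest libraries), and r was 0.90, 0.79 and 0.90 within intact, AAV-GFP and AAV-SIRT3 libraries. With the 12 identity genes, r was 0.88 for Ddc, 0.88 for Slc18a2, 0.80 for Th, 0.77 for Slc6a3 and 0.74 for Gch1, of which Gch1 did not pass (adjusted permutation p = 0.0544).

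The serotonergic markers moved with some of these genes. Their mean log2 level was correlated with Gch1 (r = 0.72, adjusted permutation p = 0.0246) and Slc18a2 (r = 0.67, adjusted permutation p = 0.0246). The relation was weaker for Ddc (r = 0.53, adjusted permutation p = 0.0997). By Spearman rho neither Gch1 nor Slc18a2 passed (adjusted permutation p = 0.0601 and 0.0708). Without intact 1 and 2 the r of Gch1, Slc18a2 and Ddc were lower, at 0.40, 0.38 and 0.12. Within AAV-GFP libraries alone they were 0.71, 0.89 and 0.85, and within AAV-SIRT3 libraries 0.55, 0.41 and -0.37. In intact 1 the ratio of Slc18a2 to Th was 1.58, against 1.12 to 1.23 in the other intact libraries, and the ratio of Ddc to Th was 1.25 against 0.908 to 1.01. The lowest sum of these markers was that of AAV-SIRT3 5, which held 51 normalised reads of Tph2, the enzyme of neuronal serotonin synthesis, and 5 of the serotonin transporter gene Slc6a4, and its ratio of Slc18a2 to Th was 1.02. The ratio did not follow the markers in every library, since AAV-SIRT3 6 had the lowest ratio, 1.01, at a sum of 3116, and intact 2 had 1.19 at a sum of 1054. Gch1 was also correlated with the thalamus markers, in the opposite direction (r = -0.84, adjusted permutation p = 0.0246). This r was -0.70 without the 2 farthest libraries, and by Spearman rho the relation did not pass (adjusted permutation p = 0.0708). The part of these markers in the levels of the genes was not tested.

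**Figure D5:**
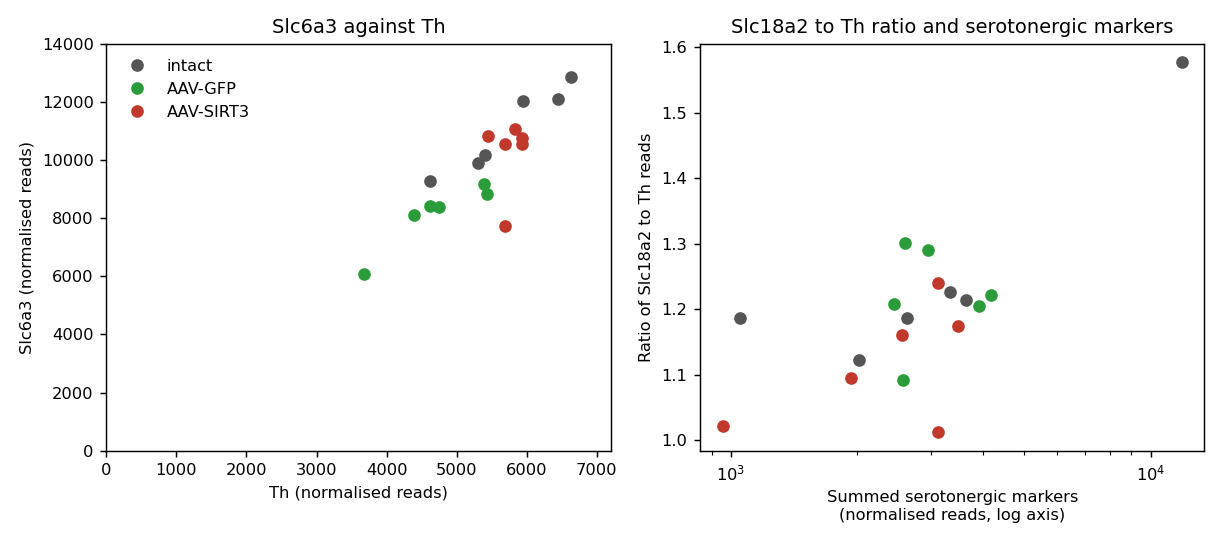
Left, Slc6a3 against Th in normalised reads, both axes from 0, with 1 point per library coloured by group; AAV-SIRT3 6 lies below the other libraries of similar Th. Right, the ratio of Slc18a2 to Th against the summed normalised reads of 5 serotonergic markers (log axis); intact 1 stands alone at 11853 and a ratio of 1.58.

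The genes outside the set whose deviations were most like those of its members are given by the highest Pearson r over 18 libraries, as a description. Th was most like Slc10a4 (r = 0.86), Kcnh6 (0.83) and Pitx3 (0.82), and Ddc was most like Slc10a4 (0.97), Ypel5 (0.90) and En2 (0.87). For Slc18a2 these were En2 (r = 0.91), Slc10a4 (0.88) and Ypel5 (0.87), and for Slc6a3 they were Chrna6 (0.95), Gucy2c (0.87) and Ret (0.86). Slc10a4, Pitx3, En2, Chrna6 and Ret belong to the identity list. Gch1 was most like Nxph4 (r = 0.92), Erfl (0.91) and Camk2g (0.89), Pts like Gap43 (0.84), Gm48653 (0.81) and Gprin1 (0.80), and Qdpr like Pdlim2 (0.92), the myelin gene Mog (0.90) and Cdc37 (0.89). Maoa was most like Cntnap4 (r = 0.86), Txnl1 (0.86) and Lrrc41 (0.84), and Maob like Btbd16 (0.89), 9230116N13Rik (0.87) and Pcdha10 (0.86).

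Of 13 further genes of cofactor and catecholamine metabolism 10 were tested, and Dbh, Pnmt and Slc6a2 were too low. In AAV-SIRT3 against AAV-GFP and in AAV-GFP against intact 0 of the 10 passed with limma, with 3 and 1 at an unadjusted p under 0.05, beside 15.2% and 19.1% of all genes. In AAV-SIRT3 against intact 2 passed, both higher, where 11.3% of all genes did. They were Akr1a1, an aldehyde reductase, with a log2 fold change of 0.22 (limma adjusted p = 0.00185), and Spr, sepiapterin reductase of the tetrahydrobiopterin pathway, with 0.16 (limma adjusted p = 0.0440). Akr1a1 was at 13107 ± 332, 13981 ± 723 and 15242 ± 1034 normalised reads in intact, AAV-GFP and AAV-SIRT3 libraries (SD, n = 6 each). After leaving out intact 1, 3 and 5, Akr1a1 (0.21, limma adjusted p = 0.0242) and Spr (0.23, limma adjusted p = 0.0386) still passed. Spr kept its call in 9 of 18 fits with 1 library left out. Aldh1a1, the aldehyde dehydrogenase of ventral nigral neurons, was at 16137 ± 1198, 16166 ± 1594 and 16549 ± 1163 normalised reads (SD, n = 6 each) and passed in none of the comparisons (limma adjusted p = 0.821, 0.9996 and 0.710 for AAV-SIRT3 against AAV-GFP, AAV-GFP against intact and AAV-SIRT3 against intact).

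Of the 5 dopamine receptors, 1 passed in AAV-SIRT3 against intact, near the share of 21.7% over all genes there, and 0 in the other comparisons. At an unadjusted p under 0.05 there were 2 in AAV-SIRT3 against AAV-GFP and 0 in AAV-GFP against intact, beside 15.2% and 19.1% of all genes. Drd5 was at 110 ± 12.5, 120 ± 19.6 and 155 ± 30.5 normalised reads in intact, AAV-GFP and AAV-SIRT3 libraries (SD, n = 6 each), with a log2 fold change of 0.48 in AAV-SIRT3 against intact (SE 0.137, limma adjusted p = 0.0161), and an antisense gene, Gm26560, overlaps it. Drd5 without intact 1, 3 and 5 was at 0.51 and did not pass (limma adjusted p = 0.0725). Drd2, the autoreceptor of dopaminergic neurons, was at 1549 ± 195, 1477 ± 235 and 1751 ± 210 normalised reads (SD, n = 6 each) and did not pass (limma adjusted p = 0.242 in AAV-SIRT3 against AAV-GFP).

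Markers of other cells were measured beside these results. The summed level of the 6 thalamus markers was between 19497 and 52807 normalised reads for intact, 41854 and 51308 for AAV-GFP and 41228 and 57238 for AAV-SIRT3 libraries. Of the 6, 1 and 6 were called higher in AAV-GFP and in AAV-SIRT3 against intact, beside 0.823% and 11.3% of all genes. The astrocyte gene Gfap rose in AAV-GFP against intact (log2 fold change 0.50, limma adjusted p = 0.0388), as did the microglial gene Aif1 (0.47, limma adjusted p = 0.0283), which were 1 of 6 astrocyte and 1 of 6 microglial markers called there, where 0.823% of all genes were called higher. Of the 6 microglial markers, 3 were called higher in AAV-SIRT3 against intact, beside 11.3% of all genes. They were Aif1 (0.49), Tmem119 (0.38) and Itgam (0.25), with limma adjusted p = 0.00327, 0.00181 and 0.0357. The 4 GABAergic markers summed to 54350 to 63642 normalised reads in intact, 47395 to 57528 in AAV-GFP and 48130 to 64930 in AAV-SIRT3 libraries. In AAV-GFP against intact 3 of these 4 were below 0, with a median log2 fold change of -0.18, and in AAV-SIRT3 against AAV-GFP all 4 were above 0, with a median of 0.19. None of them was called in these comparisons, with Slc32a1 at -0.25 in the first and Pvalb at 0.33 in the second (limma adjusted p = 0.0586 and 0.0708). At an unadjusted p under 0.05 there were 2 and 3 of them, beside 19.1% and 15.2% of all genes. Pvalb was called higher in AAV-SIRT3 against intact (0.43, limma adjusted p = 0.000837), where 11.3% of all genes were. The 6 endothelial markers summed to 7683 to 9851, 8361 to 10620 and 6934 to 9996 normalised reads in the same order of groups. In AAV-SIRT3 against AAV-GFP 5 of these were below 0, with a median of -0.35. None was called (0 of 6), and 4 were at an unadjusted p under 0.05, beside 15.2% of all genes. Against intact libraries, 3 endothelial markers were called lower in AAV-SIRT3, where 21.7% of all genes were called in either direction. They were Kdr (-0.58), Cldn5 (-0.42) and Pecam1 (-0.35), with limma adjusted p = 0.000936, 0.0237 and 0.0470. Ly6c1 was called higher (0.45, limma adjusted p = 0.00578). The summed oligodendrocyte markers were 789961 to 973415 normalised reads in intact, 821543 to 943205 in AAV-GFP and 805440 to 932291 in AAV-SIRT3 libraries, and the summed serotonergic markers 1054 to 11853, 2446 to 4164 and 958 to 3486. The part of these cells in the levels of the 9 genes was not tested.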

How the data were processed

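The data are poly-A RNA sequencing of the mouse substantia nigra in 18 libraries, 6 per group, and groups and replicate numbers come from the sample titles. The authors deposited a signal per gene, which by the name of the table is HTSeq counts normalised by DESeq2. Per the submitters' processing notes, HISAT2 2.1.0, DESeq2 1.34.0 and the build mm10 were used, and the annotation and strand setting are not given in the sources used here. From the values, each column is whole reads divided by 1 size factor (0.877 to 1.17): multiplying back gave whole numbers for 100% of values, within 1e-06 reads. For intact 4 and AAV-SIRT3 4, whose factors are near 1, this is a weaker sign. Precision is limited by the 6 libraries per group, and sampling noise alone did not account for the differences between replicates (chi-square per degree of freedom 8.27 to 36.6 over 45 pairs).

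All 18 value columns were matched to samples. Genes with at least 10 in at least 6 libraries were tested on log2(value + 1) with limma 3.58.1 in R 4.3.3, in 1 model of 3 groups with a variance trend, with Benjamini-Hochberg adjustment over all 19443 genes at 0.05. The pseudocount makes fold changes of low genes too small. The procedure was tested on simulated data. Single genes and ratios were compared by exact two-sided permutation over libraries (scipy 1.17.1). No p adjusted over the 9 genes alone is given for single genes, although the planned design had one. Alternatives were other normalisations, pseudocounts and filters, edgeR 4.0.16, DESeq2 1.42.0, a fit of 2 groups, a replicate block, thalamus and identity covariates and leaving out each library. Added after seeing the data were a serotonergic covariate, leaving out intact 1, 3 and 5, removal of the length trend, and the ratios.

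All 9 genes are given in each comparison. Of the lists of other pathway genes, receptors and identity genes, those past the threshold are named, with Spr, Aldh1a1, Nr4a2, Pitx3 and Drd2 in any case, and 3 genes most like each gene. A gene of the pathway list is not reported here. The genes and lists were chosen with earlier results of these data known. Positions are from GENCODE M21 (GRCm38, the same assembly as mm10).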

Additional observations from a re-analysis of the deposited data

Results flagged for a closer look

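In each group of 6, the lowest and the highest library were compared with their nearest neighbour, and set apart when that distance exceeded the 95% critical value of Dixon as a share of the range of the group. Of 78 groups tested 6 met this, where chance gives about 3.9. Slc6a3 was lowest in AAV-GFP 5 with 6087 normalised reads, where the next library had 8113, and in AAV-SIRT3 6 with 7743, where the next had 10540. The level of Slc6a3 relative to the identity genes was also lowest in AAV-SIRT3 6, at 3.99 on the log2 scale against 4.21 in the next library. The relative level of Gch1 was highest in AAV-GFP 1, at 0.0682 against -0.28 in the next library. The mean log2 level of the serotonergic markers was lowest in AAV-SIRT3 5, at 5.84 against 8.14, and that of the oligodendrocyte markers was highest in intact 1, at 16.3 against 16.1.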

How the results depend on the processing

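The number of the 9 genes called was the same with TMM factors, quantile normalisation, either pseudocount, a mean of at least 50, edgeR, only the 2 groups compared and the replicate block (0, 1 and 1 in the order AAV-SIRT3 against AAV-GFP, AAV-GFP against intact and AAV-SIRT3 against intact). The replicate numbers did not pair the libraries: correlations of deviations between same-numbered libraries were between -0.0953 and 0.175, 1 of 18 over 0.1, and 1 library correlated best with its own number. With DESeq2 the counts were 2, 3 and 2, beside 1.6%, 5.14% and 23.8% of all genes. In AAV-GFP against intact the count was 0 with all genes above 0, with the thalamus or the identity list as a covariate and without intact 1, 3 and 5, and 3 with the serotonergic covariate. In AAV-SIRT3 against intact it was 0 with the thalamus covariate and without intact 1, 3 and 5, and 2 with the serotonergic covariate. It was 3 with the length trend removed (Pts, Qdpr and Maob). Without intact 1, 3 and 5, 0.0514% and 8.67% of all genes were called in AAV-GFP and in AAV-SIRT3 against intact. Leaving out 1 library gave 0 to 2, 0 to 5 and 1 to 2 genes. Without AAV-GFP 2, Th and Slc6a3 were called in AAV-SIRT3 against AAV-GFP, beside 4.43% of all genes. Without intact 2, Th, Ddc, Gch1, Slc6a3 and Slc18a2 were called in AAV-GFP against intact, beside 2.38% of all genes. Qdpr was called with Maob in AAV-SIRT3 against intact without intact 1, AAV-GFP 2 or AAV-SIRT3 4. For the other alternatives the share of all genes called is not given here, so their counts cannot be set against it. Slc6a3 in AAV-GFP against intact was called in 26 of 33 alternatives, with values of -0.49 to -0.21, and Maob in AAV-SIRT3 against intact in 31 of 33, with 0.14 to 0.25. The causes of these changes were not tested.

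The values that changed sign were all of uncalled genes. In AAV-SIRT3 against AAV-GFP, Slc18a2 was -0.031 with the identity covariate, and Maoa was -0.031 to 0.0087 leaving out 1 library, 0.0074 with the serotonergic covariate and 0.012 with the length trend removed. In AAV-GFP against intact, Gch1 was 0.0013 with the thalamus covariate, and Maoa was 0.027 with the thalamus covariate, 0.010 with the identity covariate and 0.0066 without intact 1, 3 and 5. In AAV-SIRT3 against intact, Th was -0.0011 with quantile normalisation, -0.00062 with edgeR and -0.043 to 0.062 leaving out 1 library. There the thalamus covariate gave Ddc 0.21, Gch1 0.29, Slc6a3 0.058, Slc18a2 0.15 and Maoa 0.016, and leaving out intact 1, 3 and 5 gave Ddc 0.16, Gch1 0.21, Slc6a3 0.058 and Slc18a2 0.099. Leaving out 1 library, Ddc was -0.15 to 0.0025 and Gch1 -0.14 to 0.050, and Gch1 was 0.0069 with the identity covariate, 0.025 with the serotonergic covariate and 0.00015 with the length trend removed. Over single genes, 10 of 27 exact permutation tests had an unadjusted p under 0.05, and relative to the identity genes 5 of 27. Both counts stayed within 1.5 times of these in the alternatives run. By limma, an unadjusted p under 0.05 was held by 15.2% of all genes in AAV-SIRT3 against AAV-GFP. It was held by 19.1% in AAV-GFP against intact and 34.9% in AAV-SIRT3 against intact. The exact test was not run over all genes, and the 27 tests share libraries.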

Other observations

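AAV-GFP 5 held the lowest value of all 18 libraries for Th (3673), Ddc (3673), Gch1 (337), Slc6a3 (6087) and Slc18a2 (4779), in normalised reads, and the highest value of Gfap, the astrocyte gene, with 33696 beside 14204 to 31479 in the others. Its Pts (1546), Qdpr (11406), Maoa (3822) and Maob (3106) lay inside the ranges of the other libraries. By mean over the 18 libraries, Qdpr was above 96.4% of the tested genes and Slc6a3 above 94.6%, while Gch1, at 445 normalised reads, was above 44.0%.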
